A study of Homo sapiens with 8 samples.

Results

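Tandem acceptors 3 nt apart are pairs of 3′ splice sites that one 5′ splice site joins to, 1 triplet of bases apart. They were examined here in HEK293 cells, an established human embryonic kidney line, of which 4 libraries came from cells given the solvent dimethyl sulfoxide (DMSO, replicates 9 to 12) and 4 from cells given LMI070 at 25 nM (replicates 13 to 16). LMI070, also called branaplam, is a small molecule that changes the choice of 5′ splice sites. No genetic change separated the groups, both came from the same line, and 2 libraries of either group were run in lane 7 and 2 in lane 8. The series concerns control of gene therapies through drug-induced splicing, and the comparison of the groups asks which splice junctions the compound alters in these cells. A pair was a member when both junctions lay on one strand, shared the 5′ splice site, had acceptors exactly 3 nt apart, used GT-AG or GC-AG ends, and each had at least 10 uniquely mapped reads summed over the 8 libraries. Members were thus selected on the reads of both junctions over all libraries and not on the contrast between the groups. The rule found 1991 pairs among 8736 acceptor pairs 2 to 100 nt apart that met the same read minimum, which is 22.8% of them. Reads of both acceptors in a member ranged from 21 to 87552, with a median of 610.

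At such sites the intron ends in the pattern NAGNAG, where N is any base. Splicing to the upstream AG, called the proximal acceptor, keeps the second triplet in the exon, and splicing to the downstream AG, the distal acceptor, removes it with the intron. In a coding region the choice therefore adds or removes 1 codon and keeps the reading frame. The AG is recognised by the small subunit of U2AF when the spliceosome assembles and is chosen again before exon ligation, and the base before it is known to matter, with C and T favoured over A and G. The measure used throughout is the distal share, the reads of the distal junction as a percentage of the reads of both. A high distal share means that the triplet is mostly left out of the messenger RNA.

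The sequences that carry the range of distal shares are shown first, all from coding members and read from GENCODE 29 transcripts in the GRCh38 build. Each run is 27 bases on the transcribed strand, 5′ to 3′, and the capitals mark the 6 bases of the NAGNAG pattern, with intron bases before it. H2AFY, EIF4B, RPSA, RPL11, PPIB, OS9, RANBP1 and the TAGTAG site of DDX3X had the most reads of their pattern. MYL6, PTMA, ZNF282 and NUCKS1 were picked after their values had been seen, as cases that depart from the median of their extra triplet or carry most reads.
MYL6 (chr12:56158666-56158692, plus strand): tccctcttctctGAGCAGtgtgacttc
EIF4B (chr12:53039220-53039246, plus strand): acattactgcccAAGCAGatgaaaata
ZNF282 (chr7:149212340-149212366, plus strand): tcttgttcccgcAAGTAGactccccaa
PTMA (chr2:231711872-231711898, plus strand): ctgttttctgtcGAGGAGaatgaggaa
OS9 (chr12:57716074-57716100, plus strand): catgctgtttctCAGTAGactcaaagc
H2AFY (chr5:135360596-135360622, minus strand): ttccgtctgtgcAAGAAGaagcagggt
RANBP1 (chr22:20126937-20126963, plus strand): tgcttgtgttttTAGCAGgatcaggca
DDX3X (chrX:41347297-41347323, plus strand): atttttttcttaTAGTAGcagatttag
NUCKS1 (chr1:205719665-205719691, minus strand): cttctttcttctCAGAAGattccggca
RPL11 (chr1:23692594-23692620, plus strand): tcttccctgttgCAGCAGgatcaaggt
RPSA (chr3:39412259-39412285, plus strand): gtattctcttaaCAGAAGactggagcg
PPIB (chr15:64156134-64156160, minus strand): acctttcttttcCAGGAGgtggtgcgg

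In these 12 sites the distal share over all reads ran from 99.8% in MYL6, a myosin light chain gene, to 0.0725% in PPIB, which encodes the endoplasmic reticulum enzyme cyclophilin B. In MYL6 and in EIF4B, a translation initiation factor gene with 98.0%, the proximal triplet begins with G or A and the extra triplet is CAG. In RPSA and PPIB the proximal triplet is CAG and the extra triplet begins with A or G, and RPSA, a ribosomal protein gene, had a share of 0.267%. PTMA, the gene of the acidic nuclear protein prothymosin alpha, has GAG in both places and had 89.9%. OS9, which acts in the disposal of misfolded proteins, and ZNF282, a zinc finger gene, carry TAG as the extra triplet and had 73.5% and 92.8%. H2AFY, the gene of histone macroH2A1, had 55.3% with AAG in both places, and RANBP1, a regulator of the Ran GTPase, had 40.9%. The TAGTAG site of DDX3X, an RNA helicase gene, gave 29.2%. NUCKS1 and RPSA share the pattern CAGAAG, and their shares were 13.9% and 0.267%, so sites with the same 6 bases differed widely.

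Uniquely mapped junction reads per library ranged from 20369466 to 36131054. The 6 HEK293 marker genes were read in every library, from PAX2 at 0.438 to 0.937 CPM (spliced reads scaled to library size) to CDH2 at 215 to 223. Of the 14 markers of fibroblasts, blood, keratinising epithelium and hepatocytes, APOB was at 0 in every library and COL1A1 alone passed 1 CPM, at 16.8 to 29.1. The shares of members in 2 libraries of one group and lane differed by 1.03 to 1.28 times the counting error (chi-square per degree of freedom over members), and those in libraries of different groups by 1.03 to 1.33 times. The libraries were thus about as alike between groups as within them, and none repeated another.

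A distance of 3 nt was the most frequent among all acceptor pairs. It was followed by 4 nt with 612 pairs, 5 nt with 392 and 6 nt with 226, while 113 pairs lay 2 nt apart and no distance from 7 to 30 nt had more than 170. The members lay in 1599 host genes; 1305 of these had 1 member, 294 had more, and no gene had more than 5. For 18 members no host gene was found, and 1917 (96.3%) lay in protein-coding genes. The introns of 68 members belong to more than 1 gene, and their reads cannot be assigned to either. The 1991 pairs use 1835 distinct tandem acceptors, of which 129 were joined to 2 or more 5′ splice sites, so members are not independent of each other.

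**Figure D1:**
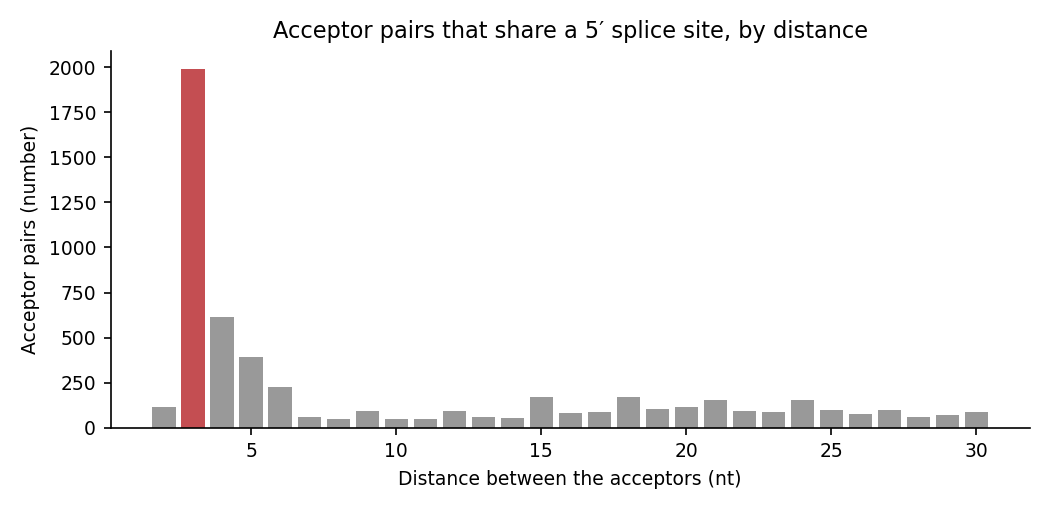
Number of acceptor pairs that share a 5′ splice site (vertical axis) by the distance between their acceptors in nt (horizontal axis, 2 to 30 nt), each acceptor with at least 10 reads over the 8 libraries. The red bar at 3 nt holds 1991 pairs and the next, at 4 nt, holds 612.

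The distal share had a median of 21.7% over the members, with quartiles of 4.84% and 52.4%. It was under 50% in 1458 members (73.2%), so the proximal acceptor was the more used one in most pairs. Shares between 10% and 90% were found in 1139 members (57.2%), against 33.3% of the pairs 4 to 100 nt apart. Up to 5% was measured in 506 members and over 95% in 60. These numbers depend on the rule, since a minor acceptor at a low share reaches 10 reads only where the intron is deeply read. There were 107 members with exactly 10 reads at the less used acceptor, whose median total was 75 reads. Just outside the rule lay 84 pairs with 9 such reads, whose median total was 131.5.

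The 10 members with the most reads show how tightly a share can be read at high depth. In PTMA, with 87552 reads, it was 89.9%, 89.9%, 89.8% and 90.1% in DMSO replicates 9 to 12 and between 89.7% and 90.3% in LMI070 replicates 13 to 16. The groups overlapped, and all 8 libraries lay within 1 percentage point. In RANBP1 the DMSO values were 41.6%, 42.6%, 41.1% and 39.7% and the LMI070 values 41.5%, 40.0%, 41.2% and 39.0%, again with overlap. HNRNPC, the gene of an RNA-binding protein of nuclear transcripts, had 3.17% ± 0.151 in DMSO and 3.14% ± 0.269 in LMI070 (SD, n = 4 each). The other 7, RPLP2, ENO1, RPS6, RPSA, HMGN2, CANX and XRCC6, had group means from 0.0698% to 1.16%. RPS6, a ribosomal protein gene, was the lowest, with a mean of 0.0698% ± 0.0294 in DMSO and 0.0716% ± 0.0439 in LMI070 (SD, n = 4 each). Over all 8 libraries the distal acceptor had 709 reads in RPLP2 and 575 in ENO1 but 42 in RPS6 and 39 in XRCC6, and the part of alignment errors in them was not tested.

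Annotation and use went together. GENCODE 29 lists both acceptors for 889 members (44.7%), whose median distal share was 33.1%. It lists the proximal acceptor alone for 789 (39.6%), with a median of 4.39%, and the distal acceptor alone for 204 (10.2%), with a median of 85.7%. Neither acceptor is annotated in 109 members (5.47%), whose median was 42.3%. An acceptor that the annotation lacks was therefore mostly the less used one of its pair in these counts. The annotation mark deposited with the counts matched GENCODE 29 for 99.65% of member junctions. The part of the alignment in this link was not tested.

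The extra triplet, which the proximal form keeps, could be read for 1846 members, and it ended in AG in all 1846. Bases came from annotated transcripts, so the unread members were among those without an annotated proximal acceptor. Others of that kind were read where an exon of another transcript covered the triplet. Where the distal acceptor alone is annotated the median share was 85.7%, and such sites are under-represented among the members read. Within the members read, the first base of the triplet ordered the shares. The median distal share was 32.3% in 1106 members with CAG, 22.9% in 190 with TAG, 3.50% in 465 with AAG and 1.16% in 85 with GAG. The distal acceptor was the more used one in 32.5% of the CAG members, 20.5% of the TAG members, 4.09% of the AAG members and 3.53% of the GAG members. The quartile ranges of CAG (12.1% to 59.2%) and TAG (6.63% to 42.8%) overlapped widely, and those of AAG (1.30% to 10.3%) and GAG (0.538% to 4.50%) lay below the median of either.

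Both triplets were readable in 577 members, all with AG in both places. These are members where an exon of some annotated transcript covers both triplets. Among combinations with at least 10 members, AAGCAG had the highest median distal share, 80.3% over 57 members, with EIF4B as its most read member. CAGCAG, the most frequent combination, had 36.3% over 235 members, TAGCAG 38.4% over 74 and AAGAAG 43.6% over 15. CAGTAG gave 30% over 28 and TAGTAG 21.8% over 24. The lowest were TAGAAG with 7.10% over 30, CAGAAG with 3.95% over 65 and CAGGAG with 1.27% over 18. With the extra triplet held at CAG, the median thus stood at 80.3%, 36.3% or 38.4% as the proximal triplet was AAG, CAG or TAG. This is a description of sites that passed a read minimum, with no test, since sites share genes and the minimum bears on the share.

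Most members, 1606, lay in coding sequence, with a median distal share of 16.5%. The 176 members in 5′ UTRs had a median of 30.3%, the 24 in 3′ UTRs 32.5% and the 75 in noncoding transcripts 37.1%. Among coding members whose phase was known, 586 had the junction between codons (phase 0), 643 after the first base of a codon (phase 1) and 255 after the second base (phase 2). Their medians, 13.9%, 17.5% and 20.1%, were close in view of quartiles from 3.38% to 54.3%.

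A TAG in phase 0 is a stop codon in the proximal form, and 12 members had one. Their median distal share was 93.3%, and in 11 of 12 the distal acceptor, which removes the stop codon, was the more used one. Members whose extra TAG was read in another phase had medians of 11.7% (61 members in phase 1) and 13.4% (44 in phase 2), with 14 and 4 above 50%. Part of this contrast is set by the annotation, because phases come from annotated reading frames and none of the 12 has the proximal acceptor as its only annotated one. Among members with both acceptors annotated, the medians were 95.1% over 8 in phase 0, 34.0% over 33 in phase 1 and 24.8% over 21 in phase 2. The other extra triplets showed no such step in phase 0, where the median was 24.8% for CAG, 2.44% for AAG and 0.893% for GAG, against 31.5%, 3.22% and 1.15% in phase 1.

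The 12 host genes are ADAM15, ADAMTSL5, AUP1, B3GALNT1, CEP250, DPH7, ERCC2, MKLN1, P3H1, SCO1, SNX22 and TIMM44; this group was formed after the values had been seen. The windows of AUP1, a gene of lipid droplets and protein disposal, and CEP250, a gene of centrosome cohesion, show the stop codon as the second triplet in capitals.
AUP1 (chr2:74527113-74527139, minus strand): gcctctcttgcaAAGTAGgcattcgat
CEP250 (chr20:35477853-35477879, plus strand): tccctttttggcCAGTAGttagaggag
In CEP250 the distal share was 86.2%, 90%, 92.4% and 88.6% in the DMSO libraries and 93.5%, 98.5%, 94.5% and 92.9% in the LMI070 libraries. These groups did not overlap, and the difference was 5.56 points with an interval from 0.241 to 8.12 (edgeR, adjusted p = 1.0). MKLN1, a gene of a ubiquitin ligase complex, had 91.9% ± 2.36 in DMSO and 87.7% ± 3.84 in LMI070 (SD, n = 4 each), with an interval of the difference from -8.29 to -0.273 points (edgeR, adjusted p = 1.0). In AUP1 the distal share was 100%, 100%, 91.8% and 100% in the DMSO libraries and 98.3%, 96.7%, 96.6% and 95.7% in the LMI070 libraries. TIMM44, an import factor of mitochondria and the most read of the 12 with 2592 reads, had 96.1% ± 1.05 in DMSO and 95.9% ± 0.816 in LMI070 (SD, n = 4 each). ERCC2, the helicase subunit XPD of the repair and transcription factor TFIIH, had 96.7% ± 1.72 and 98.3% ± 0.490 (SD, n = 4 each). B3GALNT1, a glycosyltransferase gene, was the exception, with 5.89% ± 5.46 in DMSO and 7.33% ± 5.42 in LMI070 (SD, n = 4 each), so that nearly all its reads joined the acceptor before the stop triplet. ADAMTSL5 and SNX22 had 26 and 42 reads and were not tested.

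**Figure D2:**
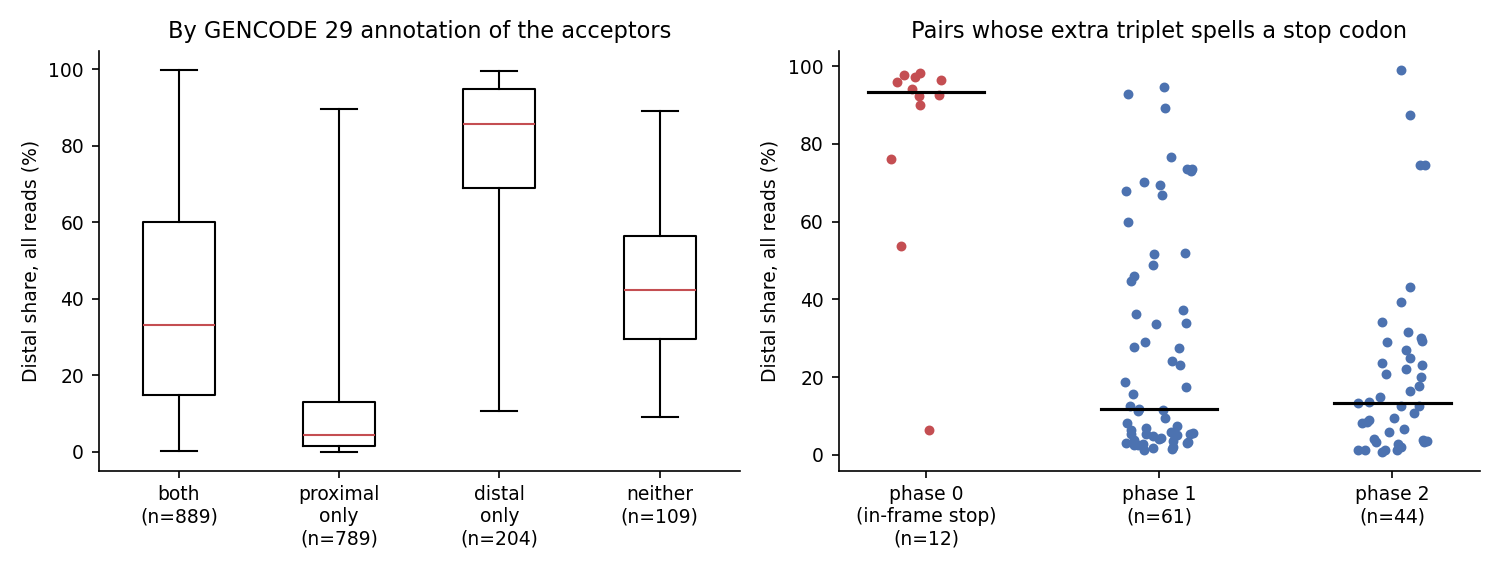
Distal share over all reads of the 8 libraries (vertical axis, %). Left, boxes from the first to the third quartile with the median in red and whiskers to the lowest and highest member, by which acceptors GENCODE 29 lists; the medians are 33.1%, 4.39%, 85.7% and 42.3%. Right, each point is a member whose extra triplet is TAG, by the phase of the junction, with the median as a black line. TAG is read as a stop codon in phase 0 alone, and 11 of the 12 in-frame members lie above 50%.

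Some introns offered more than 2 acceptors in steps of 3 nt: 7 groups had at least 3 and 1 had 4. The group of 4 was that of H2AFY, where the 4 acceptors from upstream to downstream took 44.1% ± 0.996, 55.6% ± 1.04, 0.185% ± 0.105 and 0.149% ± 0.104 of the reads in DMSO (SD, n = 4). In LMI070 they took 44.9% ± 1.09, 54.9% ± 1.08, 0.158% ± 0.136 and 0.0574% ± 0.0693 (SD, n = 4). The 3 acceptors of the DDX3X intron took 71.0% ± 0.714, 28.9% ± 0.637 and 0.164% ± 0.0943 in DMSO (SD, n = 4). SRSF10, which encodes a splicing regulator, divided its reads as 79.1% ± 1.66, 20.7% ± 1.67 and 0.190% ± 0.168 (SD, n = 4). In SYAP1 the first acceptor held 99.6% ± 0.274 in DMSO (SD, n = 4). In these 4 groups the third acceptor had under 1% of the reads in each group of libraries.

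Where the same tandem acceptor was joined to different 5′ splice sites, its shares could be set side by side. With at least 100 reads for each of 2 such sites, 77 tandem acceptors could be compared. The shares differed by a median of 5.37 percentage points, 37 pairs of values lay within 5 points and 22 differed by more than 10. In 72 of 77 both values lay on the same side of 50%, and Pearson's r across the 77 was 0.887. The values come from the same libraries, and sites of a gene share its exon. Since 73.2% of all members lay under 50%, unrelated sites would often lie on one side too, and no such reference was taken. Counting error was not removed from the gaps. DPH7, which acts in the synthesis of diphthamide, had the widest gap: 92.5% from the 5′ splice site at 137576079 on chromosome 9 and 31.0% from that at 137575708. BBS7, a gene of the ciliary BBSome, had 93.1% and 43.0%, and TLE4, a transcriptional corepressor gene, had 66.3% and 28.2%. PAM, an enzyme gene of peptide amidation, used one tandem acceptor from a GT and a GC 5′ splice site, with 39.3% from the first and 66.3% from the second.

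Only 10 members had a GC 5′ splice site, and their median share was 35.6%. The 5 most read were in SAAL1, FAM219B, ELP4, PAM and ZNF692. SAAL1 had 23.3%, 25.1%, 26.5% and 24.1% in the DMSO libraries and 18.5%, 25.4%, 22.5% and 20.5% in the LMI070 libraries, which overlapped. In ELP4, a subunit gene of the Elongator complex, the shares were 83.9% ± 3.28 in DMSO and 82.9% ± 3.27 in LMI070 (SD, n = 4 each). In FAM219B they were 24.8% ± 2.08 and 28.2% ± 1.31 (SD, n = 4 each), with all 4 LMI070 libraries below 30% and 3 of 4 above the DMSO libraries.

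LMI070 left the use of tandem acceptors without a called change. Distal and proximal reads were compared in an edgeR quasi-likelihood model with a lane term, over all 7082 acceptor pairs 2 to 100 nt apart that had at least 10 reads in every library. Of the members, 1600 entered this fit and 391 had too few reads. None was called higher and none lower at an adjusted p under 0.05 (Benjamini-Hochberg over all 7082), where the background of all pairs was 0.0% in each direction. At an unadjusted p under 0.05 there were 27 members higher in LMI070 and 19 lower, 2.88% of those tested. Over all pairs these shares were 2.02% higher and 1.72% lower. DESeq2 on the same counts called 0 members as well, with 6 at an unadjusted p under 0.05. A test that holds its level gives a fraction of 0.05 there without any change. Both tests gave fewer, so both were strict here and the absence of calls says less. The smallest unadjusted p of edgeR was 0.00558, for STRADB, with an adjusted p of 1.0.

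The size of the differences can be bounded. The group means of the 1600 members correlated with r = 0.9939, a description across sites of the same libraries. The difference LMI070 minus DMSO had a median of -0.0128 percentage points, its absolute value had a median of 1.17, and it was within 5 points in 1409 members (88.1%). The 95% interval of the difference, derived from the fitted log odds ratio, lay within 5 points in 605 members (37.8%), within 10 in 1077 (67.3%) and within 20 in 1480 (92.5%). These counts include members with shares near 0 or 100%, where intervals in points are narrow. Of the 761 tested members with a DMSO mean share of 10% to 90%, 337 had an interval within 10 points. Differences of 10 points or more were seen in 36 members, whose median was 205 reads; none had 800 reads or more. In 26 members the lowest LMI070 library exceeded the highest DMSO library and in 21 the highest lay under the lowest, against 1.45% and 1.37% of all pairs tested. For the 5382 tested pairs 4 to 100 nt apart the median absolute difference was 0.592 points, with 211 (3.92%) at an unadjusted p under 0.05 and none called. Those pairs had a median of 1102 reads and shares nearer to 0 or 100%, so the medians of both kinds of pair do not measure the same precision.

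**Figure D3:**
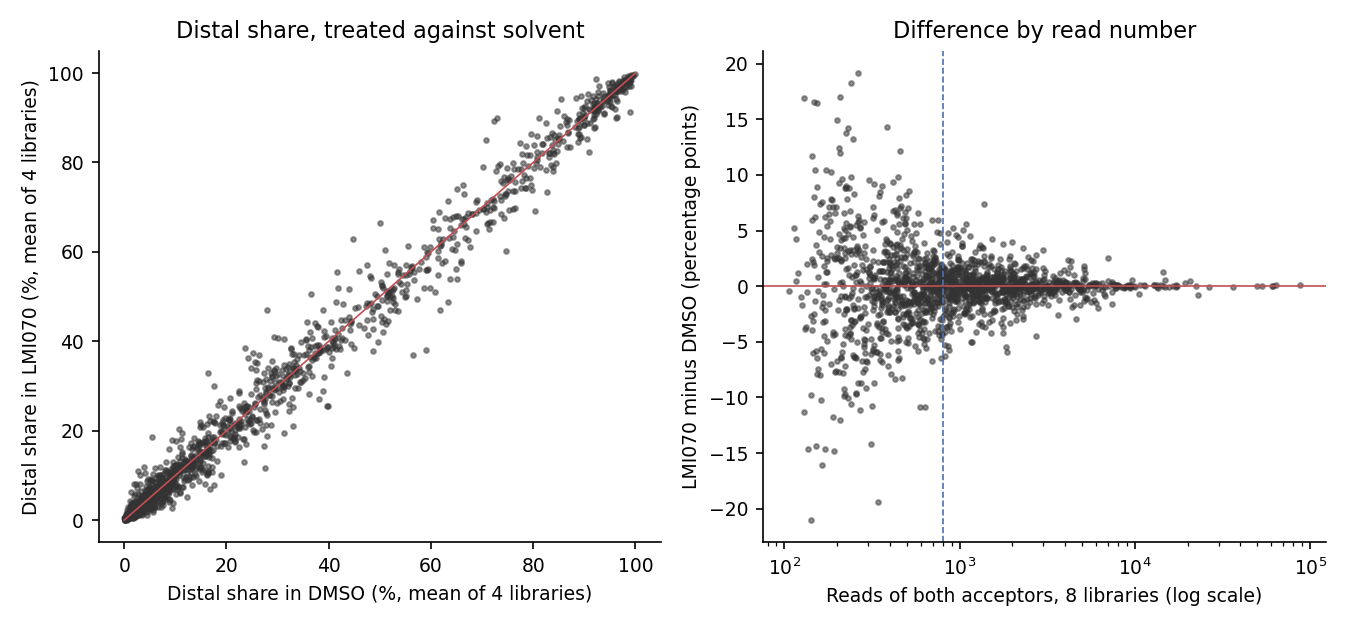
The 1600 tested members, 1 point each. Left, mean distal share of 4 LMI070 libraries (vertical, %) against 4 DMSO libraries (horizontal, %), with the line of equality in red. Right, difference LMI070 minus DMSO in percentage points against the reads of both acceptors over 8 libraries (log scale), with the dashed line at 800 reads; to the right of it no difference exceeds 7.36 points.

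Among members with at least 800 reads the widest difference was 7.36 points, in MTHFD1L, a gene of mitochondrial folate metabolism. Its DMSO libraries had 44.6%, 43.0%, 37.6% and 40.1% and its LMI070 libraries 46.7%, 42.7%, 46.7% and 58.6%. The groups overlapped, LMI070 replicate 16 stood above the others, and the interval ran from -0.131 to 14.1 points (edgeR, adjusted p = 1.0). Without that library the difference was 4.05 points, and in lane 8 alone it was 0.879. The next positive differences were 5.63 points in TRAPPC13, 5.25 in E2F5, 5.07 in CDK8, 4.74 in UBAP2L and 4.61 in NF1, none of them called. Without LMI070 replicate 16 that of E2F5 was 3.48 points, and without LMI070 replicate 14 that of UBAP2L was 7.50. NF1, the gene of the Ras regulator neurofibromin, had 7.07%, 3.31%, 3.97% and 8.55% in DMSO and 10.4%, 12.3%, 9.59% and 9.09% in LMI070. Its groups did not overlap (edgeR, adjusted p = 1.0).

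On the negative side TSC2, the gene of the mTOR regulator tuberin, had 42.6%, 51.3%, 48.6% and 48.0% in DMSO and 40.8%, 43.3%, 39.1% and 41.9% in LMI070. The difference was -6.30 points with an interval from -14.5 to 2.35, and the highest LMI070 library lay above the lowest DMSO library. ZNF714, a zinc finger gene, had 50.9% ± 2.43 in DMSO and 45.0% ± 1.49 in LMI070 (SD, n = 4 each) without overlap (edgeR, adjusted p = 1.0). RNF19B followed with -5.77 points, LIG1, a DNA ligase gene of replication, with -5.48, THAP3 with -5.35 and ATRX, a chromatin remodeller gene, with -5.25. The RNF19B value moved to -3.10 points without DMSO replicate 10, -10.6 without replicate 11 and -3.53 without replicate 12. THAP3 had 14.2%, 19.1%, 18.5% and 13.7% in DMSO and 7.43%, 11.9%, 14.1% and 10.6% in LMI070, where replicate 15 reached into the DMSO range. None of these 6 passed the adjusted threshold.

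Members near equal use of both acceptors, where a shift would be easiest to see in points, gave the same picture. The 8 with at least 800 reads and a DMSO mean nearest 50% included those of AFDN, CDC27, EIF4G3, MTA3, NUSAP1, UCHL5 and ZNF714. In NUSAP1, a gene of the mitotic spindle, the shares were 51.6%, 50.8%, 48.0% and 47.4% in DMSO and 48.5%, 51.0%, 49.6% and 51.6% in LMI070. The difference was 0.693 points with an interval from -3.71 to 4.94. CDC27, a subunit of the anaphase-promoting complex, had 49.5% ± 2.21 and 47.9% ± 2.14 (SD, n = 4 each). AFDN, a gene of cell junctions, had 50.2% ± 1.27 in DMSO and 45.7% ± 1.87 in LMI070 (SD, n = 4 each), and its groups did not overlap (edgeR, adjusted p = 1.0).

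A list of 20 genes known from other work for tandem acceptors had members in 10, with 18 members in all. IGF1R, a growth factor receptor gene, had distal shares of 25.8%, 33.0%, 35.0% and 39.0% in DMSO and 31.5%, 39.1%, 42.9% and 35.4% in LMI070, and the groups overlapped. PAX3, a developmental transcription factor gene, had 29.3% ± 5.56 and 33.4% ± 8.64, and HNRNPR, an RNA-binding protein gene, 55.1% ± 4.01 and 54.8% ± 4.37 (SD, n = 4 each). STAT3, a transcription factor gene, had 55.5% ± 11.5 and 61.3% ± 17.1 at a tandem acceptor in its 5′ UTR (SD, n = 4 each). The repressor gene ATN1 had 17.1% ± 6.22 and 11.9% ± 5.70 (SD, n = 4 each). In ING4, a histone acetylation factor gene, a tandem acceptor was joined to a pair of 5′ splice sites. The more used of them had 56.3% ± 1.76 in DMSO and 56.8% ± 8.26 in LMI070 (SD, n = 4 each).

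The remaining members of the list lie in genes with several. The 3 of BRCA1, a DNA repair gene, had DMSO means of 23.7% ± 4.06, 7.27% ± 3.24 and 25.5% ± 6.25 and LMI070 means of 25.3% ± 4.07, 8.58% ± 1.15 and 26.2% ± 1.16 (SD, n = 4 each). Of the 4 of BPTF, a chromatin remodeller gene, 3 had DMSO means from 3.78% to 7.06% and LMI070 means from 3.60% to 7.58%. The fourth, with 290 reads, gave 10.7%, 2.56%, 2.94% and 21.2% in DMSO and 0%, 0%, 2.78% and 7.89% in LMI070. Its groups overlapped, and the difference was -6.69 points with an interval from -8.59 to -1.09 (edgeR, adjusted p = 1.0). SMARCA4, the gene of the BRG1 ATPase, had 3. The one in its 5′ UTR, with 456 reads, gave 24.0%, 23.7%, 25.0% and 28.2% in DMSO and 45.5%, 33.8%, 29.1% and 41.2% in LMI070. Every LMI070 library lay above every DMSO library; the difference was 12.2 points with an interval from 1.32 to 24.4 (edgeR, adjusted p = 1.0). The other two, in coding sequence and with more reads, had 2.52% ± 1.17 against 3.13% ± 1.66 and 32.3% ± 1.26 against 34.9% ± 3.85 (SD, n = 4 each). None of the 17 tested members of the list was called.

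Taken per library, the median distal share over the tested members was 13.6%, 14%, 13.5% and 14.5% in DMSO replicates 9 to 12 and 13.4%, 13.9%, 13.5% and 14.2% in LMI070 replicates 13 to 16. The groups overlapped, at 13.9% ± 0.437 and 13.8% ± 0.369 (SD, n = 4 each). The difference of -0.155 points had p = 0.571 in an exact permutation test, two-sided, for which 0.0286 is the smallest possible value. Within lanes it was -0.218 points in lane 7 and -0.0930 in lane 8. With the reads of all tested members pooled, the shares were 21.1% ± 0.383 in DMSO and 21.5% ± 0.150 in LMI070 (SD, n = 4 each; exact permutation test, p = 0.143), a difference of 0.350 points in the other direction. Across lanes the groups overlapped in the pooled share, with 21.5% in DMSO replicate 10 and 21.3% in LMI070 replicate 16. Within each lane both LMI070 libraries lay above both DMSO libraries in the pooled share, by 0.535 points on average in lane 7 and 0.164 in lane 8. When the exact permutation kept the lanes, p was 0.0556 for the pooled share, the smallest value that its 36 assignments allow, and 0.556 for the median. PTMA alone holds 87552 of the pooled reads, and without it the difference was 0.224 points (exact permutation test, p = 0.171). The pooled share moves with the reads of each gene as well as with the choice of acceptor. The sign of the median difference also turned when DMSO replicate 12, the highest library, was left out, to 0.0376 points.

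**Figure D4:**
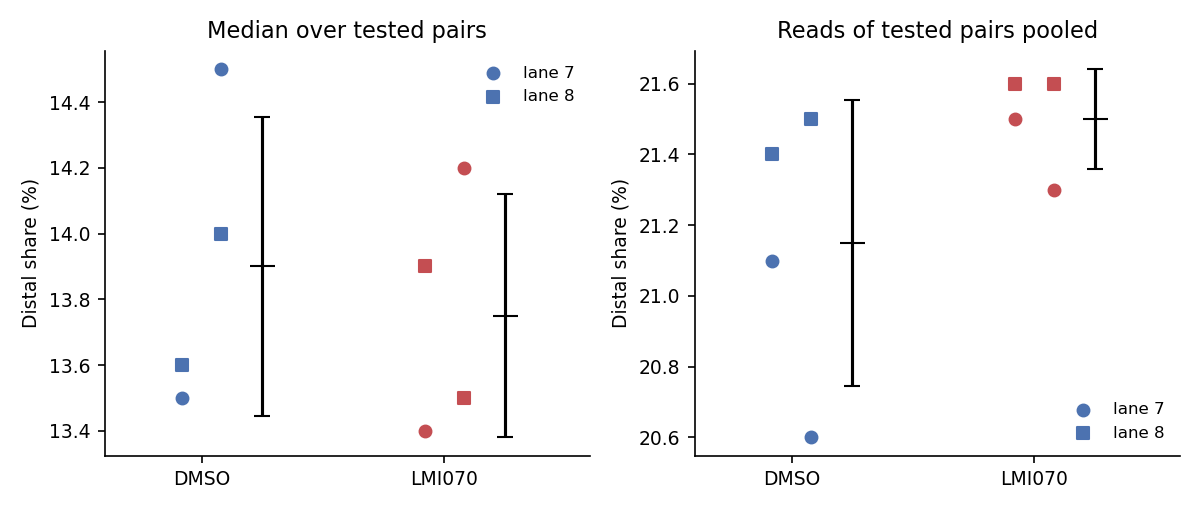
Distal share per library (vertical axis, %; the axes do not start at 0), as the median over the 1600 tested members (left) and with their reads pooled (right). Circles are libraries of lane 7 and squares of lane 8, and black bars give the group mean ± SD of 4 libraries. The groups overlap in both panels, with means of 13.9% and 13.8% on the left.

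LMI070 is known to favour 5′ splice sites that follow an exon ending in GA. Of the members, 22 had an annotated exon ending in GA before the shared 5′ splice site, and 17 of them were tested. Their median difference was 0.538 points and none had an unadjusted p under 0.05, while the 941 tested members after exons ending in AG had a median of -0.0410 points. The median absolute difference of single members was 1.23 and 1.25 points in these classes. It is not the error of a class median, so the classes were not compared by a test. Over all tested members 2.88% had such a p with edgeR, so none among 17 says little. The distal share is taken among reads of one 5′ splice site. A change in the use of that site itself therefore cancels in it.

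One member had no reads in DMSO. In SKP1, which encodes a subunit of SCF ubiquitin ligases, the 5′ splice site at 134176854 on chromosome 5 (minus strand) was joined to unannotated acceptors whose last intron bases are 134175389 and 134175386. It met the minimum of 10 reads per junction through the LMI070 libraries alone, so its difference between the groups is a description. It was singled out after its values had been seen and was not tested, since the DMSO libraries fell under the read minimum. The tandem acceptor and the exon end that follows it read as below, with capitals for the NAGNAG pattern in the first run and for the last 2 exon bases and first 2 intron bases in the second.
SKP1 acceptors (chr5:134175377-134175403, minus strand): tccttctccattAAGCAGggacaactg
SKP1 next 5′ splice site (chr5:134175275-134175295, minus strand): ggatgagtgaGAGTaggatat
The distal acceptor had 0 reads in each DMSO library and 18, 17, 15 and 11 in LMI070 replicates 13 to 16, and the proximal one 0 in each DMSO library and 7, 4, 1 and 3. All 4 LMI070 libraries thus had reads at both acceptors and no DMSO library had any. The distal share was 72%, 81.0%, 93.8% and 78.6%, with a mean of 81.3% ± 9.11 (SD, n = 4). This member is itself among the AAGCAG members, so their median of 80.3% is no independent reference for it.

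Both SKP1 acceptors together took 1.34% ± 0.115 of the reads of that 5′ splice site in LMI070 (SD, n = 4). In DMSO it was 0 of 5276 reads, which allows up to 0.0569% for counting error alone with a floor of 3 counts over the group. A 5′ splice site at 134175283 lay downstream, also unannotated, with 120 reads in LMI070 and 0 in DMSO. Between it and the tandem acceptor lies an exon of 105 nt from the proximal or 102 nt from the distal acceptor, each a whole number of triplets, that ends in GA. A further unannotated acceptor 35 nt upstream had 47 reads in LMI070 and 0 in DMSO. Spliced reads of SKP1 over annotated junctions ranged from 346 to 380 CPM in DMSO and from 324 to 359 in LMI070 (adjusted p = 0.780).

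In PSAP, the gene of the lysosomal protein precursor prosaposin, an unannotated distal acceptor was used in 2 of 8 libraries, 1 of each group. At the intron from 71825836 on chromosome 10 (minus strand) the distal reads were 0, 0, 0 and 28 in DMSO replicates 9 to 12 and 0, 39, 0 and 0 in LMI070 replicates 13 to 16. Proximal reads were 162, 207, 195 and 144 in DMSO and 292, 203, 165 and 147 in LMI070. The share was thus 16.3% in DMSO replicate 12 and 16.1% in LMI070 replicate 14, and no distal read was found in the others. Group means were 4.07% in DMSO and 4.03% in LMI070. The difference between lanes in the effect of LMI070 had an adjusted p of 3.42e-13 with edgeR, the only one among the 7082 pairs. This member was singled out after its values had been seen.

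**Figure D5:**
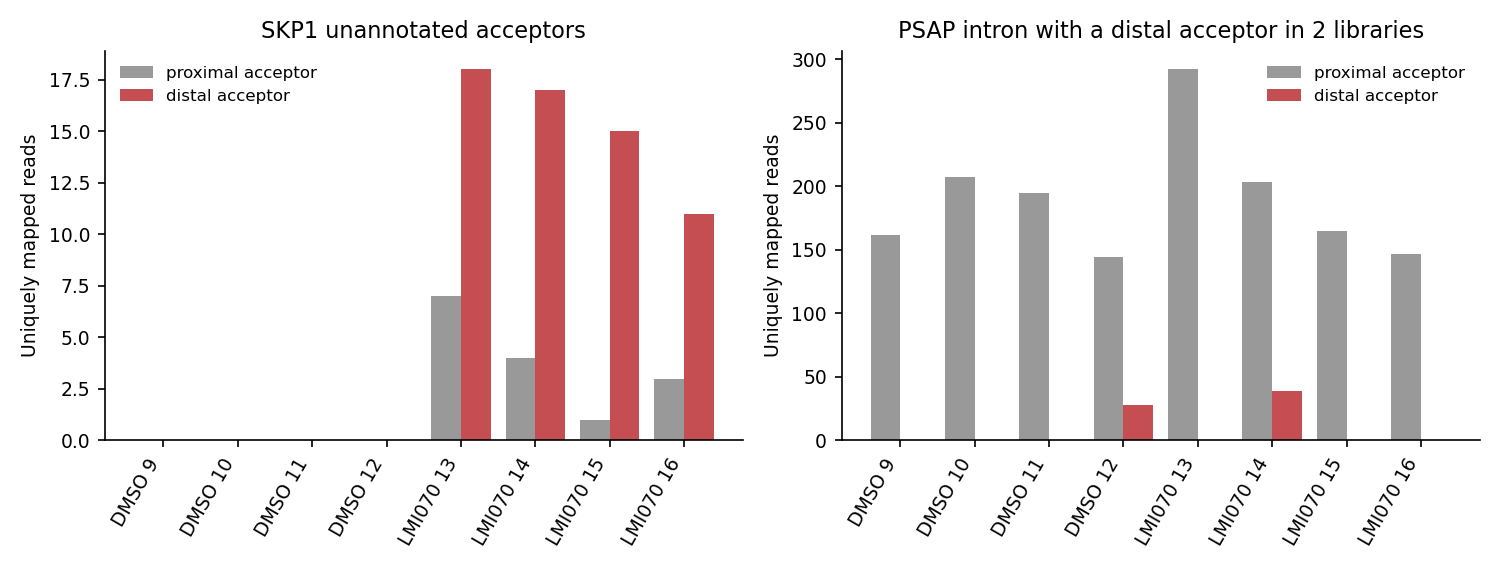
Uniquely mapped reads (vertical axis) at the proximal (grey) and distal (red) acceptor in each library. Left, the unannotated SKP1 acceptors, with 0 reads in the DMSO libraries and 11 to 18 distal reads in the LMI070 libraries. Right, the PSAP intron, whose distal acceptor has 28 reads in DMSO replicate 12, 39 in LMI070 replicate 14 and 0 in the other 6 libraries.

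The levels of the host genes were compared through spliced reads summed over annotated junctions. Bulk libraries cannot tell fewer expressing cells from less RNA per cell. Of 1593 host genes tested with edgeR, 0 were called higher and 3 lower (adjusted p under 0.05), where 0.0211% of all 14250 genes were higher and 0.105% lower. PDXDC1, a decarboxylase domain gene, had 248, 244, 254 and 248 CPM in DMSO and 155, 145, 144 and 147 in LMI070, a log2 change of -0.75 ± 0.04 (SE; adjusted p = 9.11e-10). PDXDC1 has a near-identical pseudogene copy, so its reads may be divided. TENT2, a cytoplasmic poly(A) polymerase gene, fell by 0.52 on the log2 scale (SE 0.06, adjusted p = 5.35e-05), from 82.8 to 57.6 CPM. CIP2A, an inhibitor gene of the phosphatase PP2A, fell by 0.46 (SE 0.04, adjusted p = 9.88e-06), from 183 to 133 CPM. The groups overlapped in none of the 3.

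No tandem acceptor of these 3 genes was called. PDXDC1 had 2.94% ± 1.07 in DMSO and 4.27% ± 1.19 in LMI070, and TENT2 had 1.00% ± 0.778 and 0.632% ± 0.787 (SD, n = 4 each). The 2 members of CIP2A had 0.670% ± 0.233 and 0.728% ± 0.843 at one acceptor and 4.22% ± 2.04 and 6.50% ± 2.67 at the other (SD, n = 4 each). All 4 members had an adjusted p of 1.0.

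Of 26 factors that take part in 3′ splice site choice, 25 were tested, and none was called in either direction. U2AF1, the small subunit of U2AF that recognises the AG, was the factor not tested, so its level is not known here. Their log2 differences ran from -0.07 to 0.21, with a median of 0.021, beside -0.002 over all genes. U2AF2, the large subunit of the factor that binds the polypyrimidine tract, had 390 ± 26.3 CPM in DMSO and 389 ± 4.31 in LMI070, and SF3B1, the branch site component, 807 ± 21.8 and 769 ± 25.1 (SD, n = 4 each). SLU7 and PRPF18, factors of the second splicing step, had log2 differences of 0.01 and -0.02. The smallest adjusted p was 0.342, for SF3A1, a U2 snRNP protein gene, with 157, 160, 149 and 138 CPM in DMSO and 195, 152, 156 and 200 in LMI070. The higher values of SF3A1 were those of replicates 13 and 16, the LMI070 libraries of lane 7, and the same held for SF1, the branch point binding protein gene, with 164 and 158 CPM against 118 and 124 in replicates 14 and 15.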

How the data were processed

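Junction read counts of 8 libraries of HEK293 cells were used, 4 per group. Per the labels' protocols, total RNA was depleted of ribosomal RNA and made into stranded libraries. Per the submitters' processing notes, STAR 2.6.0c and the GRCh38 build were used for alignment. The deposited tables hold raw counts of uniquely and multiply mapped reads per splice junction, without normalization. Alignment parameters and the annotation release used in alignment are not given in the sources used here. The labels do not say whether libraries came from separate cultures, so p-values measure the spread between these libraries, which may be technical.

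Uniquely mapped counts were used. Positions are those of the first and last intron base. Junctions were matched to GENCODE 29 introns, and bases, phases and locations were read from its transcripts; a genome sequence was not used here. Distal and proximal counts were fitted with edgeR 4.0.16 (R 4.3.3), with a coefficient per library, distal, distal by lane and distal by treatment, for all acceptor pairs 2 to 100 nt apart with at least 10 reads in every library; an interaction of treatment and lane was fitted in addition. Benjamini-Hochberg adjustment covered all 7082 pairs. Spliced counts per gene were scaled by TMM, filtered with filterByExpr and fitted with lane and treatment, and CPM are these TMM-scaled counts relative to library size. The tests were also run on simulated data. DESeq2 1.42.0, other filters, single lanes and leaving out each library were the alternatives. Uniquely mapped junction reads per library ranged from 20369466 to 36131054. Intervals and floors cover counting error or the fitted spread only, since reads are not independent molecules.

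Named members followed a rule: with at least 800 reads, the 6 widest differences each way and the 8 DMSO means nearest 50%; the 10 with most reads; those of a list of 20 genes with known tandem acceptors (among them IGF1R, PAX3, PAX7, ING4, NOXO1, ATN1, GNAS, STAT3, BRCA1, SMARCA4, ZFR, TOM1, RUNX1, HNRNPR, U2AF2, DNM1L, BPTF, ITGA6); up to 5 with a GC 5′ splice site; up to 4 groups of 3 or more acceptors; and called host genes. Some items that this rule names are not reported here. The members and lists were chosen with earlier results of these data known.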

Additional observations from a re-analysis of the deposited data

Results flagged for a closer look

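In 5 of 124 groups of 4 libraries examined, 1 library stood apart from the other 3 in distal share (a gap to the next above Dixon's 95% critical value for the range), where chance gives about 1 in 20. These were BPTF with 2.56% in DMSO replicate 11, at the acceptor 67891846 joined to the 5′ splice site 67886317, and ING4 with 58.9% in DMSO replicate 12. The others were EIF4G3 with 56.4% in DMSO replicate 10, AUP1 with 91.8% in DMSO replicate 11 and P3H1 with 90.8% in DMSO replicate 12.

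In PSAP the difference between LMI070 and DMSO was -8.14 points in lane 7 and 8.06 in lane 8 at the distal acceptor 71823894, and the test of the difference between lanes gave an adjusted p of 3.42e-13 with edgeR. Each value rests on 1 library, DMSO replicate 12 in lane 7 and LMI070 replicate 14 in lane 8. The second PSAP member, at the acceptor 71820333, had 0.220% ± 0.144 in DMSO and 0.282% ± 0.146 in LMI070 (SD, n = 4 each), with reads in all 8 libraries.

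Multiply mapped reads were not part of the main measurement, and with them 57 further acceptor pairs 3 nt apart reached 10 reads at both acceptors.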

How the results depend on the processing

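No paired analysis was possible because the groups share no replicate number. No member was called under DESeq2, without a read minimum, at 20 reads per junction, with multiply mapped reads, at an overhang of 30 nt, without the lane term, in lane 7 alone or with members fitted alone. PSAP was called in 3 settings: 1 member higher in lane 8 alone, 1 higher without DMSO replicate 12, and 1 lower without LMI070 replicate 14, so that leaving out libraries gave 0 to 1 calls in each direction. Of 204 alternative values for the 12 widest differences, 203 kept their direction and none passed the threshold. The 12 were chosen for their width in these data. DESeq2, the other read minima, the overhang, the missing lane term and members fitted alone used the same counts of these members. Their differences could not move in those settings, so the number 203 is no measure of stability. E2F5 turned to -0.661 points in lane 8 alone. Leaving out 1 library moved 4 of the 12 by over 1.5 times (RNF19B, E2F5, MTHFD1L and UBAP2L). The median share per library changed sign when reads were pooled (0.350 points; in settings chosen after seeing the data, 0.535 in lane 7, 0.164 in lane 8 and 0.224 without PTMA) and without DMSO replicate 12, and ranged from -0.299 to 0.0376 points over the libraries left out. The 3 host genes called lower stayed called in every alternative run. Host genes called lower numbered 5 with DESeq2 and 7 without a filter on low counts; those called higher numbered 58 without that filter and 0 to 1 with a library left out (1 without DMSO replicate 10). The cause was not tested. Depth limits the size that could be seen: the 95% intervals of the tested members had a median width of 9.85 points.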
